A study of Homo sapiens with 8 samples.

Results

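The genes of 10 surface molecules against which antibodies, engineered T cells or diagnostic reagents have been made in multiple myeloma were followed in LP-1 cells, a human myeloma line that carries the t(4;14) translocation. The 10 genes were taken by name from the 63129 genes of the deposited table, and each was found at a chromosomal position. They are TNFRSF17 (BCMA), TNFRSF13B (TACI), TNFRSF13C (BAFF receptor), CD27, SDC1 (CD138), CD38, SLAMF7, FCRL5, GPRC5D and NCAM1 (CD56). RNA was sequenced in 8 libraries, which form 4 groups of 2 biological replicates. The treatments lasted 6 hr and were 2.5 μM SGC-CBP30, an inhibitor of the bromodomains of the acetyltransferases CBP and EP300, or 250 nM CPI203, an inhibitor of the BET family of bromodomain proteins. Each compound had its own pair of libraries from cells given DMSO, the solvent, for the same time. All groups are the same unmodified cell line, so the values describe 1 tumour line and no patient material.

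Plasma cells and the myeloma cells derived from them live on signals received at the membrane, and several of these receptors are also the handles by which therapy reaches the cell. BCMA and TACI bind the cytokines BAFF and APRIL, the BAFF receptor binds BAFF, and these receptors pass the signal to TRAF adaptors. Syndecan-1 (CD138) carries heparan sulfate chains that hold growth factors, CD38 is an enzyme that consumes NAD, and SLAMF7 is a receptor of the SLAM family that binds itself on neighbouring cells. GPRC5D is an orphan receptor of plasma cells, FCRL5 is an Fc receptor-like protein, CD27 is the receptor of CD70 and NCAM1 is an adhesion molecule.

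The sequences upstream of 4 of these genes are shown because the genes differed in how they responded: GPRC5D and TNFRSF13B were lower with both compounds, SDC1 was lower with CPI203, and CD38 moved by less than 1.5-fold with either. Each line gives the 250 bases before the transcription start, 5′ to 3′ on the strand of the gene, from RefSeq on GRCh38.p14. The positions are chr12:12952171-12952420 on the minus strand for GPRC5D, chr17:16972119-16972368 on the minus strand for TNFRSF13B, chr2:20225476-20225725 on the minus strand for SDC1 and chr4:15778078-15778327 on the plus strand for CD38. Capitals mark a match to GGAA and GAAA with any 2 bases between them.
GPRC5D: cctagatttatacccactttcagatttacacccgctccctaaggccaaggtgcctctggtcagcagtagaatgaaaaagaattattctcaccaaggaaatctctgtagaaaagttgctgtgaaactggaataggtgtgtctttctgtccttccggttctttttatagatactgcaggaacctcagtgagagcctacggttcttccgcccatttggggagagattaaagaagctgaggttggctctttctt
TNFRSF13B: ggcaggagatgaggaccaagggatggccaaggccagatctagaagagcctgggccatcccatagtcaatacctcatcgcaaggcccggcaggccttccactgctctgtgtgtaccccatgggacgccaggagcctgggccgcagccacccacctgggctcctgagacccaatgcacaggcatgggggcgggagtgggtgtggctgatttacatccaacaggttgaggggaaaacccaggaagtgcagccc
SDC1: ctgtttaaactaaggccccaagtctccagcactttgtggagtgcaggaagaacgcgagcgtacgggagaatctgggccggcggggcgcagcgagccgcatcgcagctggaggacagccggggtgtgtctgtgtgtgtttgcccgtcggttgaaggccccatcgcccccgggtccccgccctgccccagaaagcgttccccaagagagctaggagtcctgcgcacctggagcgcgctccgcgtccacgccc
CD38: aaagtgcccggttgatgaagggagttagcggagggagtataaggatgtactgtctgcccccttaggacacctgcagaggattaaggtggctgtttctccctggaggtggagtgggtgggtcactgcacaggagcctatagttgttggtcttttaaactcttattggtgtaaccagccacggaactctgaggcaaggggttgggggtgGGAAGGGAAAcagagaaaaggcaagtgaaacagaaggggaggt
Promoters were found for 6 of the 10 genes, the other two being FCRL5 and CD27, and were searched on both strands over these bases and the 50 that follow the start. The motifs were GAAA followed after any 2 bases by GAAA, the same with GGAA in first place, both of which resemble sites of interferon regulatory factors, and the E-box CACGTG. The only match in the 6 promoters was the GGAA and GAAA pair of CD38, from 43 to 34 bases before the start. Of all 27305 promoters, 2.84% held that motif, 3.65% held the motif with GAAA in both places and 7.43% held CACGTG. The 250 bases were 44.4% G and C for GPRC5D, 62.0% for TNFRSF13B, 66.4% for SDC1 and 52.4% for CD38, against a median of 58.0% over all promoters. TNFRSF17, TNFRSF13C, SLAMF7 and NCAM1 are named only.

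Levels are given in RPKM, read values scaled for transcript length and for the mapped reads of the library, which allows genes of different length to be compared. Depth, estimated from the steps of low values, was between 26000000 and 49600000 reads per library and was highest in the SGC-CBP30 libraries. Plasma cell markers summed to between 2180 and 3240 RPKM in every library. Markers of B cells summed to at most 0.519 RPKM with PAX5 at 0, those of T cells to at most 1.12, those of NK cells to at most 0.0975, those of monocytes to at most 0.291 and those of erythroid cells to at most 3.55 RPKM. The T cell and erythroid markers were higher in the CPI203 experiment: CD3D averaged 0.378 RPKM with DMSO and 0.456 RPKM with CPI203 and was at 0 in the SGC-CBP30 experiment, CD2 averaged 0.499 and 0.387 RPKM against 0.0453 and 0.0394 RPKM, and HBB 3.37 and 1.49 RPKM against 0.787 and 1.29 RPKM. Their part in the differences between experiments was not tested. In the DMSO pair run beside SGC-CBP30, TNFRSF13B was the most abundant of the 10 at 147 ± 3.63 RPKM (SD, n = 2), ahead of TNFRSF17, SDC1, SLAMF7, CD38 and GPRC5D, and the 2 libraries of each of these did not overlap those of the next. FCRL5 and NCAM1 followed at 1.51 ± 0.158 and 1.2 ± 0.314 RPKM (SD, n = 2) and overlapped each other. CD27 and TNFRSF13C lay under 1 RPKM in all 8 libraries. In the DMSO pair run beside CPI203 the order was the same except that TNFRSF17 stood above TNFRSF13B.

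**Figure D1:**
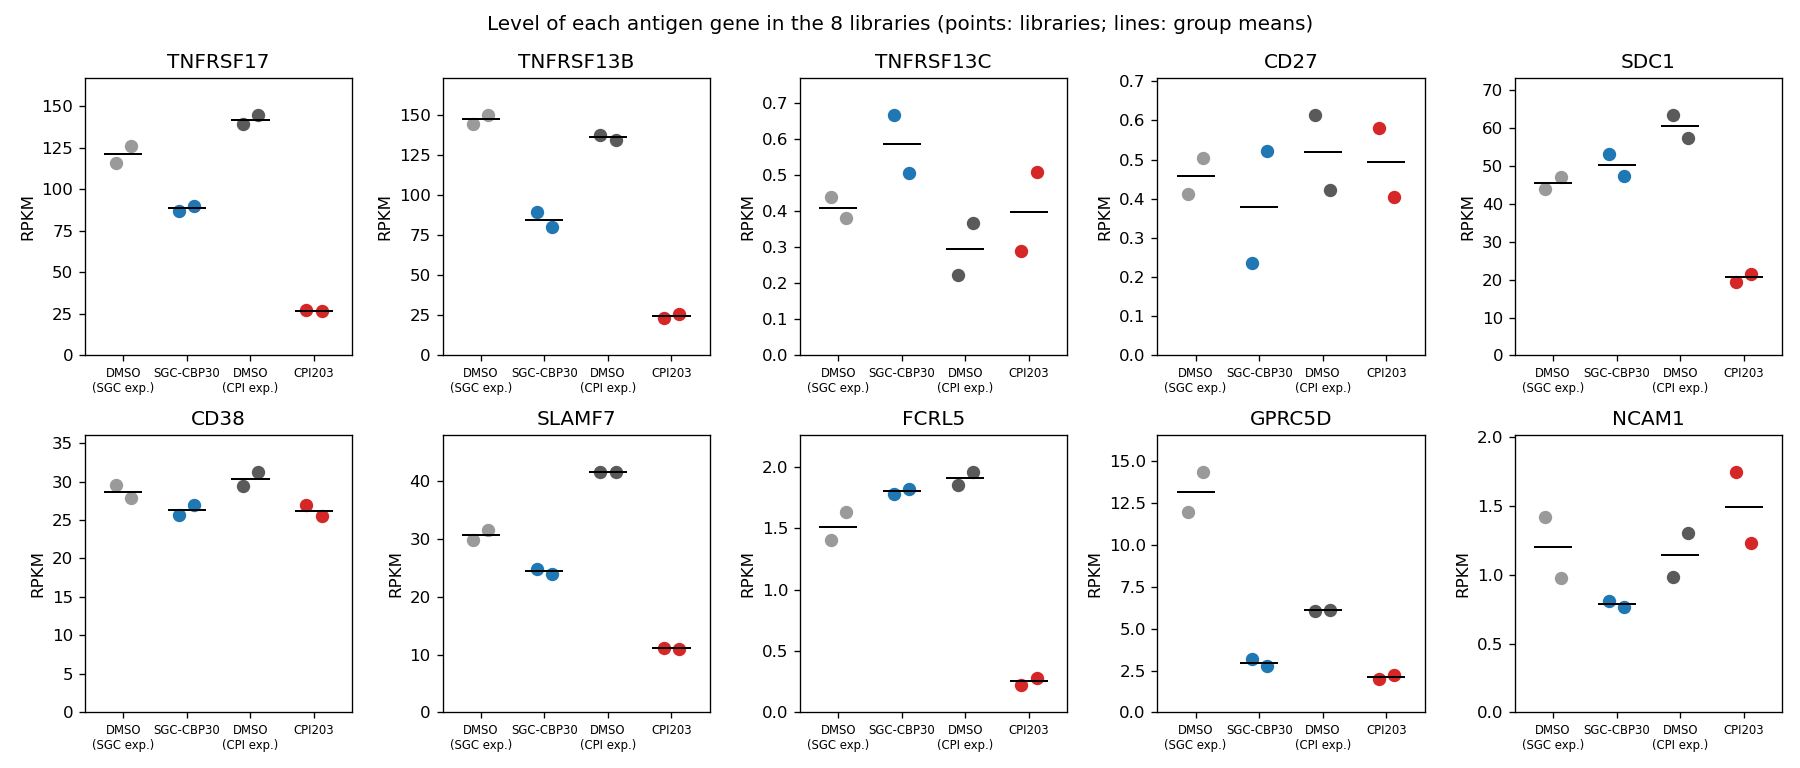
RPKM of each of the 10 antigen genes (vertical axis, from 0, on its own scale per panel) in the 8 libraries; points are libraries and horizontal lines are means of 2. The CPI203 points of TNFRSF17, TNFRSF13B, SDC1, SLAMF7, FCRL5 and GPRC5D lie below those of their DMSO pair, as for 41.7% of all genes. Those of CD38 do too, but stay between 25.5 and 26.9 RPKM.

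A gene was tested when its mean over the 8 libraries was at least 1 RPKM, which 8 of the 10 genes and 14732 genes in all passed. It was called when limma gave a Benjamini-Hochberg adjusted p under 0.05 over all tested genes and a change of at least 1.5-fold. CPI203 lowered 6 of the 8 tested antigens (TNFRSF17, TNFRSF13B, SDC1, SLAMF7, GPRC5D and FCRL5), against 14.4% of all genes called lower. None of the 8 was called higher, against 13.4% of all genes. SGC-CBP30 lowered 2 of the 8 (GPRC5D and TNFRSF13B), against 3.79% of all genes called lower, and none was called higher, against 3.47%. With libraries brought to a common median RPKM, 4.81% of genes were called lower and 2.32% higher with SGC-CBP30. In either direction 27.8% of genes were called with CPI203 and 7.26% with SGC-CBP30. The median change of the 8 was -1.73 on the log2 scale with CPI203, beside -0.01 over all tested genes, and -0.39 with SGC-CBP30, beside 0.07. GPRC5D and TNFRSF13B were the members called lower with both compounds, as were 1.62% of all genes. With no minimum fold, the adjusted p was under 0.05 for 7 of the 8 with CPI203 and for 4 of the 8 with SGC-CBP30, all of them lower. Over all genes that share was 64.2% (33.1% lower) with CPI203 and 40.4% (14.8% lower) with SGC-CBP30. In a bulk culture, fewer cells that express a gene and less RNA per cell cannot be told apart.

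Some markers of the line's identity were called too. The 9 plasma cell markers include the antigens TNFRSF17, SDC1, SLAMF7 and CD38. SGC-CBP30 lowered 2 of the 9 (3.79% of all genes) and CPI203 lowered 4 (14.4% of all genes), and none was called higher. With SGC-CBP30 these were IRF4 (-1.36) and PRDM1 (-0.64), transcription factors of plasma cells. With CPI203 they were XBP1 (-0.86), a factor of the secretory program, and TNFRSF17, SDC1 and SLAMF7, already counted among the antigens. IRF4 changed by -0.17 and PRDM1 by 0.36 with CPI203, neither past 1.5-fold. Of the 2 genes joined to the immunoglobulin locus by t(4;14), CPI203 lowered both (14.4% of all genes) and SGC-CBP30 neither (3.79%). With CPI203 FGFR3 fell by 1.59 and WHSC1 by 0.90 on the log2 scale. HBB, the erythroid marker that was tested, was called lower with CPI203 (-1.18).

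**Figure D2:**
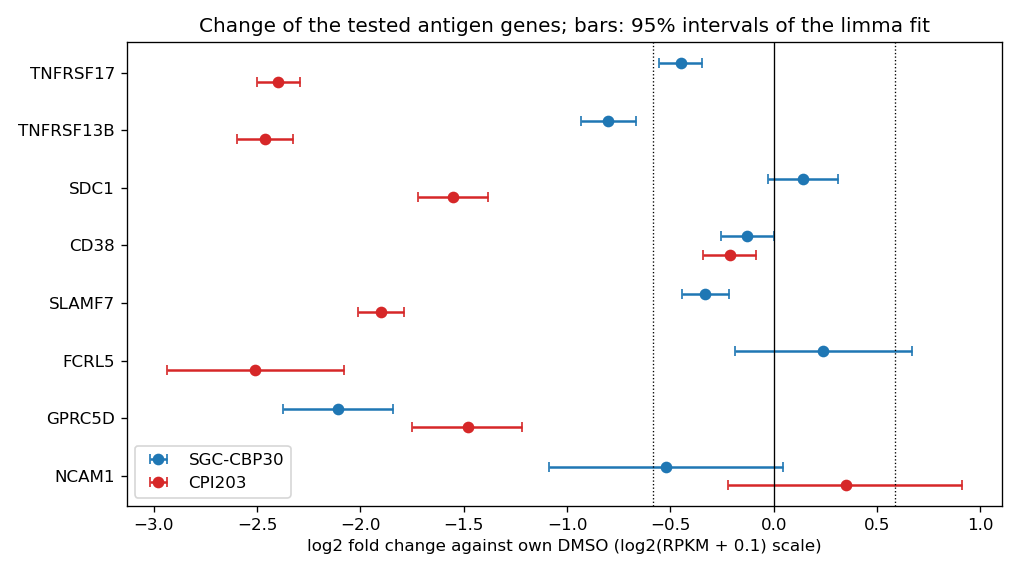
Change of the 8 tested antigens (horizontal axis, log2 fold change on the log2(RPKM + 0.1) scale) with SGC-CBP30 and CPI203, each against the DMSO libraries of its own experiment. Points are fitted changes, bars are 95% intervals of the limma fit, and dotted lines mark 1.5-fold; FCRL5 shows the lowest CPI203 value at -2.51 and GPRC5D the lowest SGC-CBP30 value at -2.11.

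Of the receptors for BAFF or APRIL, the pair that was abundant fell about 5-fold with CPI203. TNFRSF17, at hg19 chr16:12058963-12061925, measured 139 and 145 RPKM in the DMSO pair run beside CPI203 and 27.3 and 26.6 RPKM with CPI203. Its level with CPI203 was 18.9% of DMSO, with no overlap between the groups, a state shared by 41.7% of all genes in that direction. The log2 fold change was -2.40 (SE 0.0465, limma adjusted p = 7.11e-10), and 67 genes fell by more. With SGC-CBP30 it measured 87.2 and 89.8 RPKM, against 116 and 126 RPKM with DMSO, again without overlap, as for 27.2% of all genes. That change of -0.45 (SE 0.0465, limma adjusted p = 1.05e-04) was significant but smaller than 1.5-fold, and reached -0.57 when all 4 DMSO libraries served as controls. The response was less negative with SGC-CBP30 by 1.95 (SE 0.0658, limma adjusted p = 1.19e-07).

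TNFRSF13B, at hg19 chr17:16832848-16875432, was called lower with both compounds. It measured 137 and 134 RPKM with DMSO and 23.3 and 25.8 RPKM with CPI203, which is 18.1% of DMSO and a log2 fold change of -2.46 (SE 0.0601, limma adjusted p = 2.80e-09). In the SGC-CBP30 experiment it measured 144 and 150 RPKM with DMSO and 89.1 and 79.9 RPKM with the inhibitor, 57.5% of DMSO. Every treated library lay below both DMSO libraries of its experiment, as for 41.7% of all genes with CPI203 and 27.2% with SGC-CBP30. The change with SGC-CBP30 was -0.80 (SE 0.0601, limma adjusted p = 1.57e-05), and 325 genes fell by more. The compounds differed by 1.66 (SE 0.085, limma adjusted p = 7.90e-07).

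Both genes overlap another gene at their deposited positions, and whether the reads were counted by strand is not stated. RP11-166B2.1, across TNFRSF17, averaged 17.7 and 18.7 RPKM in the DMSO pairs of the SGC-CBP30 and CPI203 experiments, 15.4 RPKM with SGC-CBP30 and 8.63 RPKM with CPI203. TBC1D27, which overlaps one end of TNFRSF13B, averaged 14.7 RPKM in both DMSO pairs, 9.42 RPKM with SGC-CBP30 and 2.41 RPKM with CPI203. These levels lie under those of the antigens in every group, and the part of shared reads in either change was not tested.

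TNFRSF13C and CD27, the other tumour necrosis factor receptors, were barely detected and were not tested. TNFRSF13C ranged from 0.224 to 0.668 RPKM over the 8 libraries, or about 25 to 131 reads. CD27 ranged from 0.237 to 0.615 RPKM, about 16 to 34 reads. Their treated and DMSO libraries overlapped in 3 of 4 comparisons. The other was TNFRSF13C with SGC-CBP30, at 0.668 and 0.507 RPKM against 0.439 and 0.380 RPKM. How many of all genes had both treated libraries higher was not counted. Without the filter on low values the log2 fold change of TNFRSF13C was 0.42 with SGC-CBP30 (limma adjusted p = 0.48) and 0.33 with CPI203 (limma adjusted p = 0.529). That of CD27 was -0.28 with SGC-CBP30 (limma adjusted p = 0.733) and -0.06 with CPI203 (limma adjusted p = 1). CD27 also overlaps CD27-AS1, at 7.31 to 9.73 RPKM over the group means, and TAPBPL, and the part of their reads in its value was not tested.

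The ligands and adaptors of these receptors moved in both directions. Of 15 genes for BAFF, APRIL, CD70, TRAF adaptors and related proteins, 12 were tested. With SGC-CBP30, 1 of the 12 was lower (3.79% of all genes) and none higher, and the median change was -0.25, beside 0.07 over all genes. BIRC3, an inhibitor of apoptosis bound to TRAF2, was the gene that fell, by 0.83 on the log2 scale. With CPI203, 1 was lower and 3 were higher (14.4% and 13.4% of all genes), with a median of -0.17, beside -0.01. TRAF2, the adaptor itself, fell by 0.87, whereas BIRC2 and TRAF6 rose by 0.81 and 0.79. The genes of BAFF (TNFSF13B) and APRIL (TNFSF13) stayed under 1 RPKM in every library. CD70, the ligand of CD27, averaged 55.8 RPKM with DMSO and 45.9 RPKM with SGC-CBP30, and 41.0 and 29.4 RPKM in the CPI203 experiment, in neither case past 1.5-fold.

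SDC1, at hg19 chr2:20400557-20425194, fell with CPI203 and did not pass the test with SGC-CBP30. In the CPI203 experiment it measured 63.6 and 57.5 RPKM with DMSO and 19.5 and 21.6 RPKM with CPI203, 34.0% of DMSO. The log2 fold change was -1.55 (SE 0.0752, limma adjusted p = 1.42e-07). With SGC-CBP30 it measured 53.1 and 47.4 RPKM against 43.9 and 47.2 RPKM with DMSO. The lower SGC-CBP30 library, at 47.4 RPKM, was barely above the higher DMSO library, at 47.2 RPKM. The share of all genes with both treated libraries higher was not counted. The change of 0.14 (95% interval -0.03 to 0.31, limma adjusted p = 0.166) did not pass the test. It was 0.06 without SGC-CBP30 replicate 1, 0.22 without SGC-CBP30 replicate 2, 0.09 without DMSO replicate 1 and -0.06 with all 4 DMSO libraries as controls. The difference between the compounds was 1.69 (SE 0.106, limma adjusted p = 2.27e-06).

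Genes that build the sugar chains of syndecans moved in both directions. Of 19 genes of heparan sulfate synthesis 16 were tested. SGC-CBP30 lowered 1 of them, XYLT1 (-0.74), and raised 2, EXTL2 (1.11) and GLCE (0.71), against 3.79% and 3.47% of all genes. CPI203 lowered 3 and raised 5, against 14.4% and 13.4% of all genes. The largest changes were those of GLCE, an epimerase of the chain (1.76), NDST1, a sulfotransferase (-1.65), and B3GALT6, which builds the linker (-1.47). The list medians were 0.03 with SGC-CBP30 and 0.14 with CPI203, beside 0.07 and -0.01 over all genes. Of the other syndecans SDC4 alone was tested and rose by 1.14 with CPI203. Of 6 sheddases and heparanase genes 2 were tested, and ADAM17, a sheddase, rose by 0.60 with CPI203.

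CD38, at hg19 chr4:15779897-15851069, had the smallest fitted change of the 8 tested antigens with CPI203. The wide interval of NCAM1 (-0.22 to 0.91) includes smaller changes. It measured 29.4 and 31.3 RPKM with DMSO and 26.9 and 25.5 RPKM with CPI203, 86.3% of DMSO. The groups did not overlap, as for 41.7% of all genes in that direction. The log2 fold change of -0.21 (95% interval -0.34 to -0.08, limma adjusted p = 0.00855) lay within 1.5-fold. Without replicate 2 of DMSO or of CPI203 its adjusted p in limma was 0.0616 and 0.0615. With SGC-CBP30 it measured 25.7 and 27.0 RPKM against 29.6 and 27.9 RPKM, with no overlap, as for 27.2% of all genes. The change was -0.13 (95% interval -0.25 to 0.00, limma adjusted p = 0.109). With libraries brought to a common median it was -0.20 (limma adjusted p = 0.0176), and after quantile normalization -0.17 (limma adjusted p = 0.0435). The difference between the compounds was 0.09 (95% interval -0.10 to 0.27, limma adjusted p = 0.403), an interval that excludes a 1.5-fold difference. Of 7 genes for enzymes of NAD and adenosine metabolism, 4 were tested. SGC-CBP30 lowered 1 of the 4, ADA, adenosine deaminase, by 0.62, against 3.79% of all genes called lower. CPI203 raised 1, NMNAT1, which makes NAD, by 0.93, against 13.4% of all genes called higher. The 4 genes that shield cells from complement or phagocytosis were all tested. None was called with either compound, against 27.8% of all genes with CPI203 and 7.26% with SGC-CBP30.

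SLAMF7, at hg19 chr1:160709036-160724611, fell to 26.6% of DMSO with CPI203. It measured 41.6 and 41.7 RPKM with DMSO and 11.2 and 10.9 RPKM with CPI203, a log2 fold change of -1.90 (SE 0.0503, limma adjusted p = 4.41e-09). With SGC-CBP30 it measured 24.8 and 24.0 RPKM against 29.8 and 31.6 RPKM, 79.4% of DMSO. The groups did not overlap, as for 27.2% of all genes in that direction. The change of -0.33 (SE 0.0503, limma adjusted p = 9.29e-04) was smaller than 1.5-fold, and was -0.55 (limma adjusted p = 0.0427) when all 4 DMSO libraries served as controls. The compounds differed by 1.57 (SE 0.0712, limma adjusted p = 4.14e-07). Of 10 other genes of the SLAM family and its adaptors, 2 were tested. Both were called lower with both compounds, as were 1.62% of all genes. CD48, a ligand in this family, changed by -1.48 with SGC-CBP30 and -1.83 with CPI203, and LY9 by -1.08 and -1.70.

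FCRL5, at hg19 chr1:157483166-157522310, had the lowest log2 fold change of the 10 genes with CPI203 but from a low level. It measured 1.85 and 1.96 RPKM with DMSO and 0.226 and 0.280 RPKM with CPI203, 13.3% of DMSO. Over the merged length of its annotated exons, 12419 bases, this is an estimated 73 and 102 reads in the CPI203 libraries. The log2 fold change was -2.51 (SE 0.191, limma adjusted p = 2.25e-06), and -1.21 with a pseudocount of 1 in place of 0.1. TNFRSF13B was at -2.42 and TNFRSF17 at -2.36 with that pseudocount. After quantile normalization the values were -2.24 for FCRL5, -2.43 for TNFRSF13B and -2.36 for TNFRSF17. The lowest rank of FCRL5 thus did not hold in these settings. With SGC-CBP30 FCRL5 measured 1.78 and 1.82 RPKM against 1.4 and 1.63 RPKM. That is a change of 0.24 (95% interval -0.19 to 0.67, limma adjusted p = 0.343). The compounds differed by 2.75 (SE 0.27, limma adjusted p = 2.94e-05). FCRLB was the tested gene among 7 other Fc receptor-like genes. It was called lower with both compounds, as were 1.62% of all genes, at -0.60 with SGC-CBP30 and -1.81 with CPI203.

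GPRC5D, at hg19 chr12:13093708-13105081, was lower with both compounds, and the fall was larger with SGC-CBP30 when each was set against its own DMSO. It measured 12 and 14.4 RPKM with DMSO and 3.22 and 2.75 RPKM with SGC-CBP30, 22.6% of DMSO. The log2 fold change was -2.11 (SE 0.119, limma adjusted p = 2.51e-06), and 19 of the 14732 genes fell by more. In the CPI203 experiment it measured 6.09 and 6.15 RPKM with DMSO and 2.02 and 2.24 RPKM with CPI203, 34.8% of DMSO and a change of -1.48 (limma adjusted p = 3.14e-06). Treated libraries lay below their DMSO libraries in both experiments, as for 27.2% of all genes with SGC-CBP30 and 41.7% with CPI203.

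The DMSO pairs of the 2 experiments were not alike for GPRC5D. The level was 13.2 ± 1.65 RPKM (SD, n = 2) in the SGC-CBP30 experiment and 6.12 ± 0.0464 RPKM (SD, n = 2) in the CPI203 experiment, a log2 difference of -1.09 (limma adjusted p = 1.20e-04). The treated levels were 2.98 ± 0.333 RPKM with SGC-CBP30 and 2.13 ± 0.154 RPKM with CPI203 (SD, n = 2). The responses differed by -0.63 (SE 0.168, limma adjusted p = 0.0114) with each compound set against its own DMSO. With all 4 DMSO libraries as controls of both, the changes were -1.56 with SGC-CBP30 and -2.03 with CPI203. With shared controls the DMSO values cancel from the difference, which was 0.47 (limma adjusted p = 0.368) and compares only the treated libraries. It leaves out the gap between the DMSO pairs and does not test the choice of controls. The order of the compounds for this gene differed between the 2 comparisons. Against own DMSO, the difference missed the threshold with no filter on low values (-0.63, limma adjusted p = 0.0579). It also did so without DMSO replicate 2 of the SGC-CBP30 experiment (-0.50). The overlapping RP11-392P7.6 stayed between 6.05 and 6.83 RPKM in all 4 group means. At 6.83 RPKM with SGC-CBP30 and 6.09 RPKM with CPI203 it stood above GPRC5D in the treated groups. The part of shared reads in the values of GPRC5D was not tested. GPRC5B, the tested gene among 3 relatives, was called lower with CPI203 (-0.93), as were 14.4% of all genes, and changed by 0.25 with SGC-CBP30.

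NCAM1, at hg19 chr11:112831996-113149158, stood near 1 RPKM and passed no test in the fit used here. It measured 1.42 and 0.975 RPKM with DMSO and 0.812 and 0.769 RPKM with SGC-CBP30, a log2 fold change of -0.52 (95% interval -1.09 to 0.05, limma adjusted p = 0.128). With CPI203 it measured 1.75 and 1.23 RPKM against 0.984 and 1.30 RPKM with DMSO, where the groups overlapped and the change was 0.35 (95% interval -0.22 to 0.91, limma adjusted p = 0.258). Single libraries moved both values: the change with SGC-CBP30 was -0.27 without DMSO replicate 1 and -0.77 without DMSO replicate 2, and that with CPI203 was 0.11 without CPI203 replicate 1, 0.58 without CPI203 replicate 2, 0.16 without DMSO replicate 1 and 0.53 without DMSO replicate 2. The difference of -0.87 (limma adjusted p = 0.0687) did not pass either, though after quantile normalization it did, at -1.20 (limma adjusted p = 0.0207). These intervals include changes past 1.5-fold, so such changes were not excluded at this depth and number of libraries. A second row for NCAM1, on an alternative patch sequence, was at 0 in all libraries. Of the polysialyltransferases that modify NCAM1, ST8SIA4 was called with SGC-CBP30 (-1.01) and ST8SIA2 with CPI203 (-0.70). Over all genes 3.79% were called lower with SGC-CBP30 and 14.4% with CPI203.

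Set side by side, the responses differed between the compounds for 6 of the 8 tested antigens at an adjusted p under 0.05, as for 50.3% of all genes. The response was less negative with SGC-CBP30 for 5 of them (29.3% of all genes had a higher response with SGC-CBP30) and more negative for GPRC5D (21.0% lower). The doses were 2.5 μM and 250 nM and each compound had its own DMSO libraries, so compound, dose and experiment cannot be told apart. Between the DMSO pairs, GPRC5D was the 1 member called, lower in the CPI203 experiment. Over all genes 7.84% were called there (3.91% lower and 3.93% higher in the CPI203 experiment). At any fold 4 of the 8 had an adjusted p under 0.05, against 41.7% of all genes (21.5% lower), and TNFRSF17, SDC1 and SLAMF7 were higher in the CPI203 experiment, by 0.24, 0.41 and 0.44.

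The summed level of the 10 genes gives the make-up of these transcripts. It was 421 and 420 RPKM with DMSO and 113 and 115 RPKM with CPI203, 27.1% of DMSO. In the SGC-CBP30 experiment it was 379 and 400 RPKM with DMSO and 286 and 274 RPKM with the inhibitor, 72.0% of DMSO. TNFRSF17 and TNFRSF13B together made up 65.7% and 66.5% of the sum in the DMSO pair run beside CPI203 and 44.7% and 45.5% with CPI203, while the share of CD38 went from 6.98% and 7.46% to 23.8% and 22.1%. With CPI203, the libraries of CD38 (26.2 ± 1.01 RPKM) overlapped those of TNFRSF17 (26.9 ± 0.494) and those of TNFRSF13B (24.6 ± 1.74; SD, n = 2). Those of TNFRSF17, at 27.3 and 26.6 RPKM, lay above those of TNFRSF13B, at 23.3 and 25.8 RPKM. With SGC-CBP30 TNFRSF17 and TNFRSF13B overlapped, and CD38 stood above SLAMF7.

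**Figure D3:**
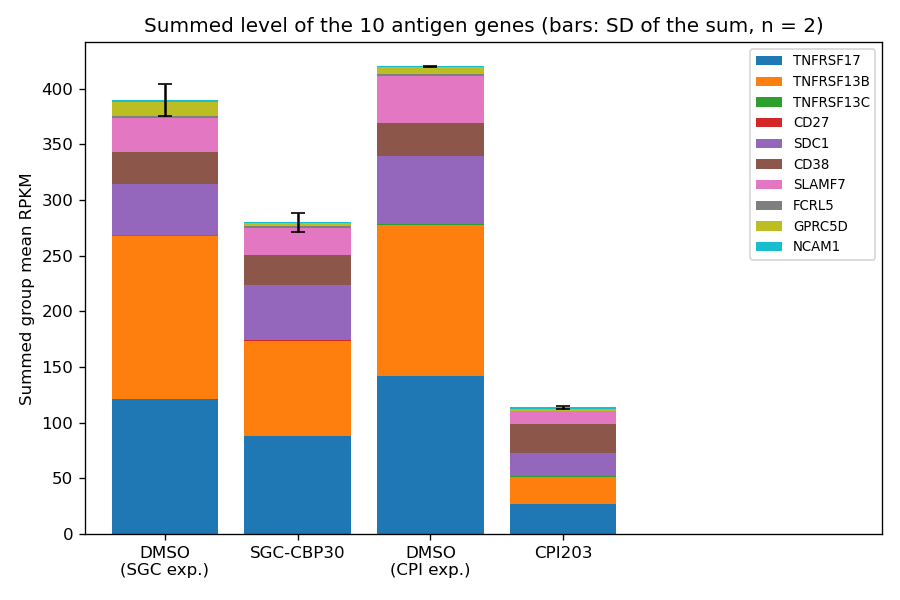
Summed mean RPKM of the 10 antigen genes (vertical axis, from 0) in the 4 groups, stacked by gene; error bars are the SD of the sum over 2 libraries. The stack is 420 RPKM with DMSO and 114 RPKM with CPI203, and CD38 keeps nearly the same height in both.

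Other surface antigens studied in myeloma showed falls and no rises past the threshold. Of 20 such genes, which include LY9 and CD70 of the lists above, 13 were tested. With SGC-CBP30 5 of the 13 were lower, against 3.79% of all genes, with a list median of -0.43 beside 0.07. With CPI203 7 were lower, against 14.4% of all genes, with a median of -1.01 beside -0.01. IL6R, the receptor of the myeloma growth factor IL-6, changed by -2.29 with SGC-CBP30 and -1.70 with CPI203. CD28, a co-stimulatory receptor, changed by -0.97 and -3.19, and ICAM1, an adhesion molecule, by -0.63 and -1.76.

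**Figure D4:**
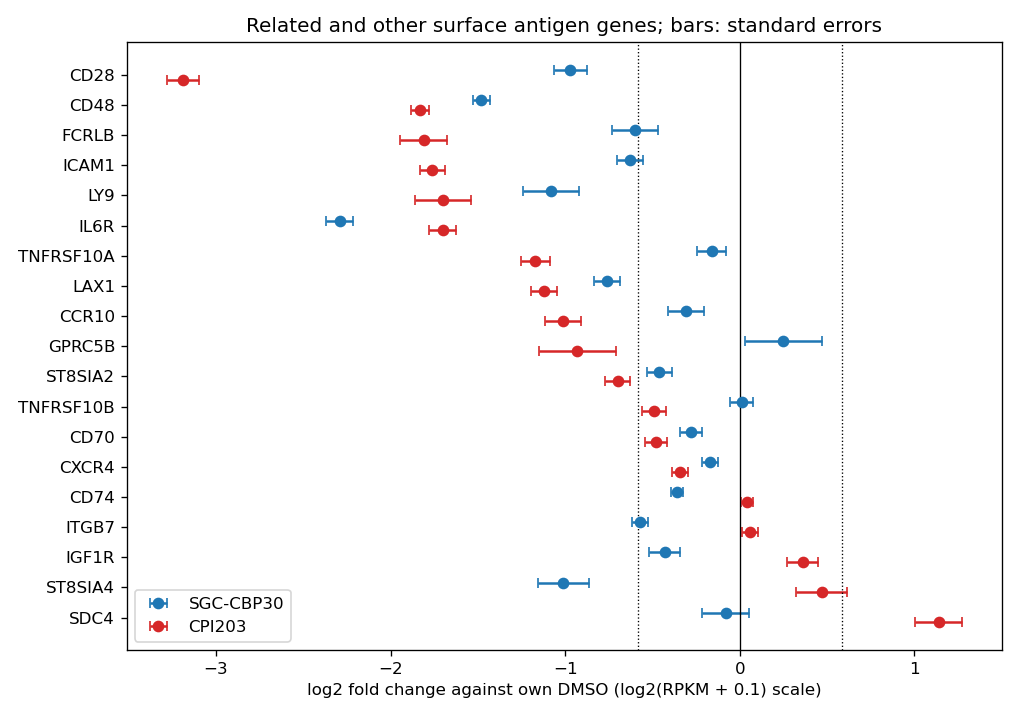
Log2 fold change (horizontal axis, log2(RPKM + 0.1) scale) of 19 tested relatives of the antigens and other surface antigens with each compound against its own DMSO; bars are standard errors and dotted lines mark 1.5-fold. CD28 has the lowest CPI203 value (-3.19), IL6R the lowest SGC-CBP30 value (-2.29), and SDC4 the highest CPI203 value (1.14).

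The genes most like each antigen over the 8 libraries were sought among 8293 genes whose mean reached 10 RPKM, by Pearson's r of the log2 values, as a description over points that share 2 experiments and their DMSO libraries. IFNG-AS1, a long non-coding RNA, was the nearest to SLAMF7 (r = 0.998) and averaged 33.6, 22.9, 45.4 and 8.43 RPKM in DMSO, SGC-CBP30, DMSO of the CPI203 experiment and CPI203, followed by CCT6A (0.995). MB21D1 and PA2G4 were nearest to TNFRSF13B (both 0.998), the overlapping RP11-166B2.1 (0.997) and SMIM11 (0.996) to TNFRSF17, and KARS (0.998) and CCDC58P3 (0.996) to SDC1. STAT6 (0.996) and NDUFV2P1 (0.995) were nearest to GPRC5D, and MRPL3 and HEATR3 (both 0.998) to FCRL5. Likeness was weaker for CD38, with HNRNPA3P6 and MSANTD4 (both 0.960), and for NCAM1, with SACM1L (0.948) and SDE2 (0.913). A high r does not mean an equal change, since KARS changed by -0.45 with CPI203 and SDC1 by -1.55.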

How the data were processed

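RNA of LP-1 cells was sequenced in 8 libraries (4 groups of 2). The values the authors deposited are RPKM from a sequencing provider. The submitters' processing notes name TopHat 1.4.1, Cufflinks and hg19, and the annotation release is not given in the sources used here. Which DMSO pair belongs to which compound was read from the library names in the labels, and 24 further columns were not used. Total RPKM was 481842 to 498947 per library. Counts were not recovered: only 62.4% to 78.3% of low values were whole reads within 0.1. Depth and reads per gene are therefore estimates, and no count test was run. Reads per gene used the merged length of all exons of a gene in a GENCODE annotation. That length may differ from the one behind the deposited RPKM.

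Of 63129 genes, 27 had a missing value, 33312 were above 0, and 14732 whose mean reached 1 RPKM were tested. limma 3.58.1 (R 4.3.3; intensity trend) was fitted to log2(RPKM + 0.1) over the 4 group means, with Benjamini-Hochberg adjustment over all tested genes. Fold changes on that scale understate those of low genes. An exact permutation test of 2 against 2 libraries cannot go below a two-sided p of 0.333. At most 2 of 8298 genes of at least 10 RPKM were identical within a replicate pair.

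The members and gene lists were chosen with earlier results of these data known. Named were all members and, per list, up to 3 called genes per compound with the largest change; 1 list is not reported here. Also named were tested relatives, genes overlapping a member, and the 2 genes most like each tested member by Pearson's r. Promoters came from RefSeq (GRCh38.p14), and other positions are those deposited. Alternatives were another pseudocount, other filters, scalings and controls, a replicate block, separate fits, no trend, and each library left out. Python 3.11.15, pandas 2.3.3, numpy 2.4.6 and matplotlib 3.10.9 were used.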

Additional observations from a re-analysis of the deposited data

Results flagged for a closer look

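For 6 antigens the response to SGC-CBP30 differed from the response to CPI203 by the limma test of the difference itself (adjusted p under 0.05 over all tested genes). The difference, SGC-CBP30 minus CPI203 on the log2 scale, was 1.95 for TNFRSF17, 1.66 for TNFRSF13B, 1.69 for SDC1, 1.57 for SLAMF7 and 2.75 for FCRL5. The CPI203 libraries of these 5 genes lay below both DMSO libraries of their own experiment, as did those of 41.7% of all genes. For GPRC5D it was -0.63, the only negative value of the 6. Its treated libraries compared directly, without DMSO, differed by 0.465. A log2 difference of -1.09 in its starting level, between the DMSO pairs, stands beside these values. No explanation of these differences was tested.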

How the results depend on the processing

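The number of called members stayed within 1.5 times the reported number under every alternative run: 2 to 3 with SGC-CBP30, 5 to 6 with CPI203, 5 to 7 for the difference between the compounds and 1 between the DMSO pairs. Of 544 pairs of a member's result and an alternative, 532 kept direction and side of the threshold. In many of these direction could not change. A replicate block, separate fits, no trend and other filters keep a compound's fitted change, as does leaving out a library of the other experiment. The 5 reversals were SDC1 with SGC-CBP30 when all 4 DMSO libraries were controls (-0.064, limma adjusted p = 0.794), the GPRC5D difference under the same controls (0.465, limma adjusted p = 0.368), CD38 between the DMSO pairs with crossed pairing (-0.005), and NCAM1 between the DMSO pairs without DMSO replicate 1 of the SGC-CBP30 experiment (0.199) or of the CPI203 experiment (0.136), against -0.3 without replicate 2 of the former. With all 4 DMSO libraries as controls, DMSO cancels from a difference between the compounds, which then compares treated libraries across experiments. The GPRC5D difference missed the threshold in 2 settings given with it. NCAM1 passed in 5: with SGC-CBP30 after quantile normalization (-0.738), and for the difference after quantile normalization (-1.195), with all 4 DMSO libraries (-0.817), without DMSO replicate 2 of the SGC-CBP30 experiment (-1.117) and without CPI203 replicate 2 (-1.104). The cause was not tested. With single libraries left out, the SGC-CBP30 change ranged from 0.141 to 0.342 for FCRL5 and from -0.169 to -0.082 for CD38. The CD38 change had an adjusted p under 0.05 after quantile normalization (limma adjusted p = 0.0435), a common median (0.0176) and crossed pairing (0.0458), always within 1.5-fold. That of SDC1 with SGC-CBP30 did so with crossed pairing (limma adjusted p = 0.0218). A filter at a mean of 5 RPKM left no value for FCRL5 or NCAM1.

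With the replicate number as a block, 2 members were called with SGC-CBP30, 6 with CPI203, 6 for the difference and 1 between the DMSO pairs, the same genes as without it. The paper describes its DMSO controls as paired, without saying which libraries form a pair. Same-numbered libraries did not deviate together (r = -0.172 and -0.0395 over 8298 genes in the SGC-CBP30 and CPI203 experiments), so the numbers were not taken as pairs. A crossed pairing, added after the data were seen, also gave 2, 6, 6 and 1. With 2 libraries per group, genes near 1 RPKM such as NCAM1 have wide intervals.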
